A study of Oryctolagus cuniculus with 134 samples.

Results

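The genes described here were the transcription factor families that lay down position and cell fate in the embryo, as far as the rabbit count tables named them. A gene was taken when its symbol belonged to the HOX clusters A to D, the TBX genes other than TBX20, the SOX genes, GATA1 to GATA6 other than GATA4, MEIS1 to MEIS3, the PITX genes, TWIST1 and TWIST2, or the FOX classes A to Q. The rule used names only and found 79 of 29587 genes, of which 14716 carried a symbol. There were 32 HOX, 20 FOX, 10 SOX, 9 TBX, 3 MEIS, 2 GATA, 2 PITX and 1 TWIST gene. Of 48 family members that were to be described whatever their result, 20 had no row under their symbol and are not analysed here, among them HOXB7, HOXD8, TBX1, TBX3, SOX17, SOX18, GATA2, GATA5, GATA6, TWIST1, FOXC1, FOXC2 and FOXP1.

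HOX genes lie in clusters whose order follows the head-to-tail order of their expression in the embryo, and the number in a HOX symbol is its paralog group. MEIS proteins bind DNA together with HOX proteins. T-box factors such as TBX5 pattern the heart chambers, and SOX9 with SOX5 and SOX6 act in the mesenchyme of cartilage and heart valves. The semilunar valves (aortic and pulmonary) arise in the outflow tract, with neural crest and second heart field contributions, whereas the atrioventricular valves (mitral and tricuspid) arise from the atrioventricular canal.

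Total RNA was sequenced from 27 male New Zealand White rabbits, with libraries of the aorta ring (Ao), aortic valve (AoV), mitral valve (MV), pulmonary valve (PV) and tricuspid valve (TV). Protocols lasted 16 weeks from 12 weeks of age. Ctrl rabbits (7) ate chow. CHT rabbits (6) ate chow with 0.3% cholesterol, Lard rabbits (7) ate 5% lard, and IR/CHT rabbits (7) ate the CHT diet and after 8 weeks received 24 Gy of X-rays in 3 fractions of 8 Gy, aimed at the aortic valve and thoracic aorta. CHT, Lard and IR/CHT rabbits all drank vitamin D2 for 15 days, dosed by body weight, so diet and vitamin D2 cannot be told apart here, and irradiation was sequenced only on top of cholesterol. Each rabbit gave 1 library per tissue, except 1 Ctrl rabbit with no MV library, so groups held 6 or 7 libraries. Levels are counts scaled to library size (CPM) after TMM scaling of all libraries together, and they rank libraries, not genes, since they are not divided by gene length.

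Libraries held 13564979 to 50577676 read pairs assigned to genes (median 18235577), so 1 CPM rested on about 13.6 read pairs in the smallest library and a count of 0 allowed up to 0.221 CPM there. Levels near or under 1 CPM carried a counting error of 23.4% or more at the median depth. All aorta libraries were prepared on plate 2 and all AoV and MV CHT libraries on plate 1. Smooth muscle markers (6 of 8 listed genes found) summed to 81778 to 115683 CPM in Ctrl aorta and to 474 to 1337 CPM in Ctrl AoV, and heart muscle markers (10 of 12 found) ranged widely in Ctrl TV, from 652 to 44808 CPM. One axis of variation between libraries of the same group took 22.5% of the within-group variance of 16984 other genes: 2970 of them rose and 2745 fell with it (absolute r over 0.6). With group means removed, over all libraries, which share rabbits, 11 of the 46 family genes in that table rose with this axis at r over 0.6: FOXK1, FOXK2, TBX2, TBX6, MEIS3, SOX9, FOXF2, SOX13, FOXF1, SOX11 and FOXO3. FOXN2, MEIS1, FOXP2 and FOXJ3 fell with it. The axis also differed between tissues, with a median score of -1.92 in AoV, -2.27 in MV, -2.52 in Ao, -3.67 in TV and -3.86 in PV, and the endothelial marker sum (7 of 8 found) had medians of 434 CPM in AoV, 547.5 in MV, 307 in Ao, 1204 in TV and 1356 in PV. Within tissues the median score was -3.15 in Ctrl and -1.79 in IR/CHT aorta. It was -1.62 and -2.07 in AoV and -2.38 and -1.92 in MV, and the groups overlapped in each tissue.

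Both libraries from the right side of 1 Lard rabbit went against their labels. The library labelled PV (L271) held no HOXA2 read pair and 36.2 CPM of TBX5. The library labelled TV (L272) held 3.95 CPM of HOXA2 and 0.0669 CPM of TBX5. In the other 26 PV libraries HOXA2 ran from 1.87 to 8.46 CPM and TBX5 from 0 to 2.62 CPM, and in the other 26 TV libraries HOXA2 did not exceed 0.194 CPM and TBX5 ran from 12.0 to 126 CPM. A score from genes outside these families (the mean log2 CPM of 207 genes called higher minus that of 678 called lower in Ctrl semilunar valves) was -0.44 in the library labelled PV, where the other PV libraries ran from 1.47 to 2.58. It was 2.10 in the library labelled TV, where the other TV libraries ran from -1.87 to 0.49. Labels were kept as given. The main counts of calls below that rest on these libraries are given with and without them, and counts under other settings with them only.

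**Figure D1:**
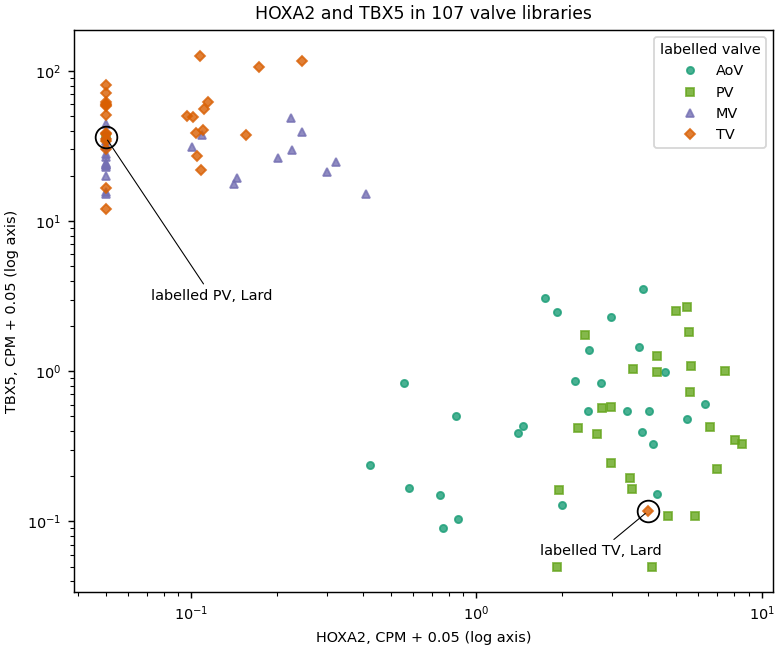
HOXA2 against TBX5 in every valve library of all 4 groups, each in CPM + 0.05 on log axes, with symbol and colour for the labelled valve. AoV and PV libraries lie at the lower right and MV and TV libraries at the upper left, and the circled Lard libraries labelled PV and TV lie in each other's place.

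In Ctrl rabbits 45 of the 79 genes were detected in at least 1 tissue, meaning over 3 read pairs in at least 4 of its libraries. The aorta held the most, 42 genes, followed by AoV with 37, PV with 34, MV with 33 and TV with 30, and 25 genes were detected in all 5 tissues. The difference between tissues lay mostly in the HOX genes: 14 were detected in the aorta, 8 each in AoV and PV, and 3 each in MV and TV. Of the 25 genes detected everywhere, 10 were FOX and 5 SOX genes, and all 3 MEIS genes and GATA3 were among them. The mean level was highest in the aorta for 25 of the 45 genes, in AoV for 11, and in MV, PV and TV for 3 each.

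**Figure D2:**
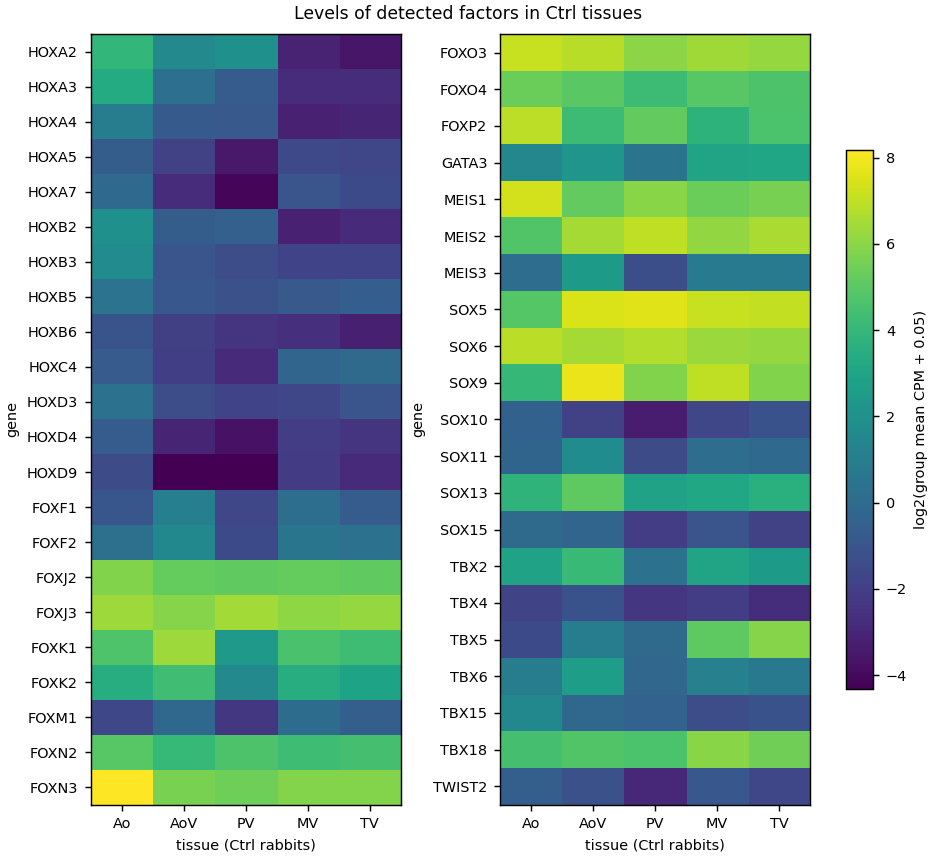
Mean level of detected genes in the 5 Ctrl tissues, as log2 of the group mean CPM + 0.05 (rows are genes, columns tissues, brighter is higher). HOXA2 to HOXA4 and HOXB2 are bright in Ao, intermediate in AoV and PV and dark in MV and TV, and TBX5 shows the reverse within the valves.

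The detected HOX genes were mostly those of low paralog number. Of 11 genes of paralog groups 1 to 4, 9 were detected in the aorta, 7 each in AoV and PV, 1 in MV and 2 in TV. Of 5 genes of groups 5 to 7, the numbers were 4, 1, 1, 2 and 1 in Ao, AoV, PV, MV and TV. Of 16 genes of groups 8 and above, HOXD9 in the aorta was the only one detected. HOXA2, a gene of hindbrain and neural crest patterning, gave the most read pairs of the HOX genes, without allowance for gene length. In Ctrl aorta it ran from 10.02 to 24.3 CPM (median 14.6), in PV from 2.35 to 5.56 CPM (median 3.49) and in AoV from 1.69 to 4.55 CPM (median 2.91), whereas MV held 0 to 0.176 CPM and TV 0 to 0.123 CPM. The aorta did not overlap PV, AoV did not overlap MV, and PV overlapped AoV as MV overlapped TV.

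HOXA3, which acts in the pharyngeal arches and their arteries, went from 4.50 to 19.5 CPM (median 7.63) in the aorta to 0.329 to 2.21 CPM (median 0.768) in AoV and 0.0659 to 1.18 CPM (median 0.528) in PV. MV and TV did not exceed 0.379 CPM. HOXB3, its counterpart in the B cluster, ran from 1.46 to 6.87 CPM (median 2.48) in the aorta and reached at most 1.52 CPM in any valve. HOXA4 (1.93 ± 0.679 CPM in Ao) and HOXB2 (3.84 ± 1.55 CPM) were likewise highest in the aorta. HOXA2, HOXA3 and HOXA4 are direct neighbours on the RefSeq map of the rabbit assembly mOryCun1.1.

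A smaller set of HOX genes ran the other way within the valves. HOXC4 held 0.562 to 1.43 CPM (median 0.859) in TV and 0.324 to 1.94 CPM (median 0.589) in MV, but 0 to 0.631 CPM in AoV and 0 to 0.350 CPM in PV. HOXA7 was at 0.436 ± 0.449 CPM in MV and 0.302 ± 0.309 CPM in TV, with 52 and 37 read pairs in all, against 13 read pairs in AoV and 1 in PV. HOXD9 and HOXD10, under the count filter and so not tested, gave no read pair in any of the 7 Ctrl AoV or 7 Ctrl PV libraries, but 23 and 14 in the 6 MV libraries, 11 and 23 in the 7 TV libraries and 35 and 26 in the 7 aorta libraries. Over all 4 groups, without the 2 Lard libraries L271 and L272, HOXD9 gave 6 read pairs in 27 AoV and 1 in 26 PV libraries against 82 in 26 MV and 31 in 26 TV libraries. HOXD10 gave 20 read pairs in the same AoV and 5 in the same PV libraries against 50 in MV and 79 in TV. HOXA5 (0.599 ± 0.385 CPM) was detected in the aorta alone, HOXA13 held 20 read pairs over the 7 aorta libraries, and HOXC6 and HOXC10 were not detected. The methods name a counting pipeline run at its defaults apart from read trimming, and those defaults take no account of strand, so reads of a HOX gene and of an antisense transcript over it cannot be told apart.

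**Figure D3:**
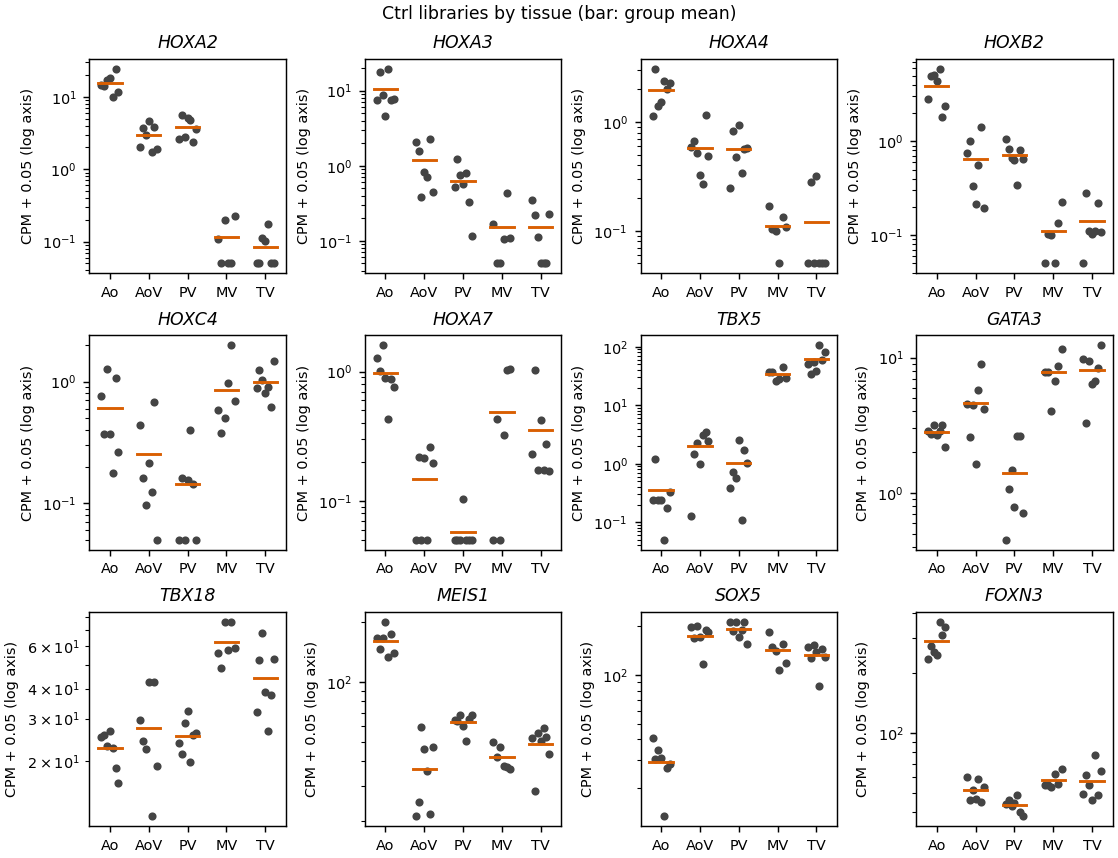
Each Ctrl library by tissue for 12 genes, as CPM + 0.05 on log axes, with the group mean as a bar. HOXA2, HOXA3 and HOXB2 are highest in the aorta and lowest in MV and TV, TBX5 is high in MV and TV alone, and FOXN3, MEIS1 and SOX5 set the aorta apart from the valves.

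The contrast of the semilunar with the atrioventricular valves (means of AoV and PV against means of MV and TV, Ctrl rabbits) called 10 of 41 genes tested, 5 in each direction, at an adjusted p under 0.05 and a fold over 1.5 in edgeR's quasi-likelihood test. Over all genes tested 5.82% were called, 1.38% higher and 4.44% lower. All 5 that were higher in the semilunar valves were HOX genes of groups 1 to 4. HOXA2 led (log2 fold change 5.97 ± 0.38, adjusted p = 1.1e-12), and HOXB2 (2.94 ± 0.42, adjusted p = 9.4e-06), HOXA4 (2.84) and HOXA3 (2.86) were among the others. TBX5, GATA3, TBX18, HOXC4 and HOXA7 were higher in the atrioventricular valves. None of the 12 FOX, 7 SOX or 3 MEIS genes tested was called in this contrast. On plate 1 alone 8 genes were called, and on plate 2 alone 3, HOXA2 and TBX5 among them.

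TBX5, a T-box factor of the atria and atrioventricular region, marked the atrioventricular valves. It ran from 34.1 to 106 CPM (median 55.4) in TV and from 26.3 to 44.4 CPM (median 33.4) in MV, against 0.0779 to 3.47 CPM (median 2.25) in AoV, 0.0583 to 2.48 CPM (median 0.673) in PV and 0 to 1.14 CPM (median 0.193) in the aorta. MV and TV overlapped, and both lay above every AoV, PV and aorta library. The log2 fold change of semilunar against atrioventricular valves was -5.03 ± 0.39, adjusted p = 1.0e-10. TBX5 is also made by heart muscle, whose marker sum had its highest median in TV. That sum ran over 184.7 to 2339 CPM in MV, 193.6 to 13119 CPM in AoV and 42.5 to 5867 CPM in PV, and the part of heart muscle in the TBX5 levels was not tested.

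GATA3, a factor known for its role in T cells, was higher in MV (7.72 ± 2.47 CPM) and TV (7.98 ± 2.89 CPM) than in PV (1.34 ± 0.901 CPM), with AoV between them (4.54 ± 2.35 CPM, log2 fold change of semilunar against atrioventricular -1.66 ± 0.25, adjusted p = 2.6e-05). TBX18, a gene of the epicardium and of perivascular cells, stood at 48.9 to 76.1 CPM (median 58.7) in MV and 26.5 to 68.4 CPM (median 38.7) in TV, and every MV library exceeded every AoV, PV and aorta library. Its log2 fold change in this contrast was -0.997 ± 0.15, adjusted p = 3.9e-05.

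The mitral against the tricuspid valve called 2 of 41 genes tested in Ctrl rabbits, where 5.33% of all genes were called. FOXP2 was among them and was lower in MV (-0.87 ± 0.26, adjusted p = 0.035). Without the TV library L168, whose FOXK1 level was 102 CPM where the other 6 TV libraries did not exceed 8.08 CPM, 8 genes were called. FOXP2 lost its call in 8 of 34 fits that left out 1 library and with the axis score as covariate, and on plate 2 alone it did not pass.

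The aorta differed from the mean of the 4 valves in 25 of 41 genes tested, 19 higher and 6 lower, where 34.1% of all genes were called (14.5% higher and 19.5% lower). Of 11 HOX genes tested, 10 were higher in the aorta and none lower: HOXA2 by a log2 fold change of 5.22 ± 0.28, adjusted p = 5.3e-17, HOXA3 by 5.12 ± 0.40, adjusted p = 1.0e-12 and HOXB2 by 4.09 ± 0.33, adjusted p = 3.1e-12, while HOXA5 (1.79 ± 0.72, adjusted p = 0.042) lost its call in 18 of 34 fits that left out 1 library. The filter on low counts passes a gene that is high in 1 tissue alone. Genes low in the valves, such as HOXA5, can so enter the test through the aorta. This favours a call of higher in the aorta, here and in the contrast of AoV with the aorta. FOXN3, a forkhead repressor, ran from 236.4 to 364 CPM (median 274.8) in the aorta, above every valve library, since none of the valve groups exceeded 77.4 CPM. FOXP2 (122 ± 18.6 CPM in Ao against 36.3 ± 7.88 CPM in PV, the next highest) and MEIS1 (161.5 ± 23.5 CPM against 62.9 ± 6.15 CPM in PV) also did not overlap any valve.

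SOX5 and MEIS2 ran the other way. SOX5 stood at 13.4 to 40.5 CPM (median 30.3) in the aorta and at 155.1 to 214 CPM (median 189.4) in PV, 117 to 199.8 CPM (median 183.9) in AoV, 107 to 183.2 CPM (median 144) in MV and 84.9 to 154.1 CPM (median 139) in TV, with no overlap between aorta and valves (log2 fold change -2.44 ± 0.15, adjusted p = 5.7e-15). MEIS2 was at 27.1 ± 4.75 CPM in the aorta and 127 ± 18.3 CPM in PV, so MEIS1 and MEIS2 were ordered oppositely between aorta and valves (1.80 and -1.79). SOX9, the cartilage and valve mesenchyme factor, was lowest in the aorta at 8.87 to 24.3 CPM (median 16.5) and highest in AoV at 110.1 to 373 CPM (median 165). SOX6, the partner of SOX5, passed the p threshold but not the fold threshold (0.46, adjusted p = 9.6e-04), and levels were 118 ± 23.3 CPM in the aorta and 105 ± 10.8 CPM in PV. TBX15 was higher in the aorta (2.40 ± 0.52, adjusted p = 2.7e-04) and TBX18 lower (-0.72 ± 0.18, adjusted p = 0.0012). Since all aorta libraries were on plate 2, the contrast was also fitted within that plate: FOXO4, HOXA5, HOXB5 and SOX10 lost their calls in it, and the other calls stayed.

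The aortic valve alone against the aorta called 24 of 41 genes (11 higher in AoV, 13 lower), where 49.6% of all genes were called (29.2% higher and 20.5% lower). SOX9 was higher by a log2 fold change of 3.78 ± 0.43, adjusted p = 9.3e-09 and SOX5 by 2.59 ± 0.17, adjusted p = 5.6e-14, and 9 of 11 HOX genes were lower, among them HOXA2 (-2.41 ± 0.37, adjusted p = 2.4e-06). With the score of the between-library axis as covariate, 27 genes were called, 5 higher and 22 lower, and the sign of FOXK1, FOXF1, SOX13 and TBX6 turned.

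The left valves (AoV and MV) differed from the right (PV and TV) in 16 of 41 genes, 15 of them higher on the left, where 33.2% of all genes were called (25.2% higher and 8.01% lower). SOX9 was higher on the left (1.58 ± 0.28, adjusted p = 1.2e-04), as was FOXK2 (1.68 ± 0.34, adjusted p = 2.8e-04), and FOXP2 was the gene lower on the left (-0.91 ± 0.18, adjusted p = 2.5e-04). TBX2, FOXK1, SOX11, MEIS3, TBX6, FOXF1 and FOXF2 were also higher on the left, by log2 fold changes of 1.63 to 2.16. Of the 15 genes higher on the left, 10 were among the 11 that rise with the axis that separates libraries of the same group. FOXK1, a forkhead repressor of autophagy genes, shows the spread: its 7 AoV libraries ran from 17.7 to 185.2 CPM (median 52.5) and its 7 PV libraries from 4.08 to 6.46 CPM (median 4.99). With the axis score as a covariate 0 of 41 genes were called, and on plate 2 alone 0 as well, against 16 in the whole set. On plate 1 alone 16 were called, GATA3 no longer among them. The axis and the side of the heart move together in these tissues and cannot be told apart. Of 16984 other genes, 2970 also rose with the axis. How many of all genes keep their calls with the axis as covariate is not given, here or for the other contrasts. The overlap with the axis and the loss of calls can thus not be read as particular to these factors.

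The aortic against the pulmonary valve, which is the semilunar portion of that contrast and shares its libraries, called 21 of 41 genes (18 higher in AoV, 3 lower) where 48.2% of all genes were called (29.9% higher and 18.4% lower). All 11 genes that rise with the axis were among the 18, such as FOXK1 (4.01 ± 0.71, adjusted p = 6.1e-05) and TBX2 (3.83 ± 0.70, adjusted p = 7.3e-05), and 0 genes were called with the axis as covariate. Neither of the 2 genes called between the mitral and the tricuspid valve rose with the axis. FOXP2, however, fell with it and lost that call with the axis as covariate. HOXA2 (-0.35, adjusted p = 0.409) and HOXB2 (-0.15, adjusted p = 0.799) did not pass between the aortic and the pulmonary valve. SOX10, a neural crest and Schwann cell factor, and TWIST2 were called (2.09 and 1.94) but lost their calls with the rabbit as a block, and in 6 of 29 and 14 of 34 fits that left out 1 library. By contrast, the semilunar against atrioventricular contrast held none of the 15 genes tied to the axis among its 10 calls, and with the axis as covariate it called 12.

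Any difference among the 5 Ctrl tissues was called for 40 of 41 genes tested, where 80.5% of all genes were called.

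The tissue differences were then read in the CHT, Lard and IR/CHT rabbits, fitted separately, for the 36 genes tested in all 4 groups. Between semilunar and atrioventricular valves 9 genes were called with the same sign in all 4 groups, where 2.07% of all genes were. HOXA2, HOXA3, HOXA4 and HOXB2 were among those higher in the semilunar valves, and TBX5, TBX18, GATA3 and HOXC4 were lower. These 9 stayed with both Lard libraries that go against their labels left out, when the Lard fit itself called 14 of 41 genes in place of 11 of 40 (4.27% of all genes). Over 105 valve libraries of all groups, without those 2, HOXA2 ran from 0.373 CPM upwards in AoV and from 1.87 CPM in PV, and did not exceed 0.361 CPM in MV or 0.194 CPM in TV. TBX5 ran from 15.0 CPM upwards in MV and from 12.0 CPM in TV, and did not exceed 3.47 CPM in AoV or 2.62 CPM in PV. Aorta against valves held 15 genes with the same sign in all 4 groups, where 12.3% of all genes did. HOXA2 to HOXA4, HOXB2, HOXB3, HOXB5, FOXN3, FOXP2, MEIS1 and TBX15 were among those higher in the aorta, and MEIS2, SOX5, SOX9 and TBX18 were lower. Left against right valves held 6 (FOXK2, FOXM1, MEIS3, SOX11 and TBX6 higher, FOXP2 lower), where 15.9% of all genes did, and with the axis as covariate 0. Without both Lard libraries these 15 and 6 genes were called again, and with the rabbit as a block SOX11 was lost from the 6 and FOXK1 joined them.

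In the 20 treatment comparisons all calls of these genes lay in the aorta, AoV or MV. For CHT and IR/CHT against Ctrl these tissues also had the highest shares of all genes called. In the aorta CHT called 7 of 44 genes tested (19.4% of all genes), Lard 1 (2.61%), IR/CHT 16 (34.3%), and IR/CHT against CHT 1 (0.596%). In AoV the counts were 3 of 37 for CHT (11.9% of all genes), 0 for Lard (0.234%), 21 for IR/CHT (42.8%) and 10 for IR/CHT against CHT (19.7%). In MV they were 3 of 34 for CHT (5.62%), 0 for Lard (0%), 9 for IR/CHT (17.7%) and 0 for IR/CHT against CHT (0.189%). PV (30 tested) and TV (27 tested) had 0 calls in edgeR in each of 4 comparisons, with up to 7 genes at an unadjusted p under 0.05, where the share of all genes called was 0.159%, 0%, 0.706% and 0.0761% in PV and 0.163%, 0%, 0.231% and 0% in TV for, in this order, the Ctrl comparisons of CHT, of Lard and of IR/CHT, and the comparison of IR/CHT with CHT. DESeq2 called 3 genes in PV for IR/CHT against Ctrl and 2 for IR/CHT against CHT, and 0 in the other PV and TV comparisons. With the Lard libraries L271 and L272 left out, the counts in PV and TV were 0 as well. For Lard, 3 AoV genes and 0 MV genes had an unadjusted p under 0.05, and DESeq2 called 0 in each. The share of tested family genes called was 56.8% for IR/CHT in AoV, 36.4% in the aorta and 26.5% in MV, and 15.9%, 8.11% and 8.82% for CHT in aorta, AoV and MV.

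**Figure D4:**
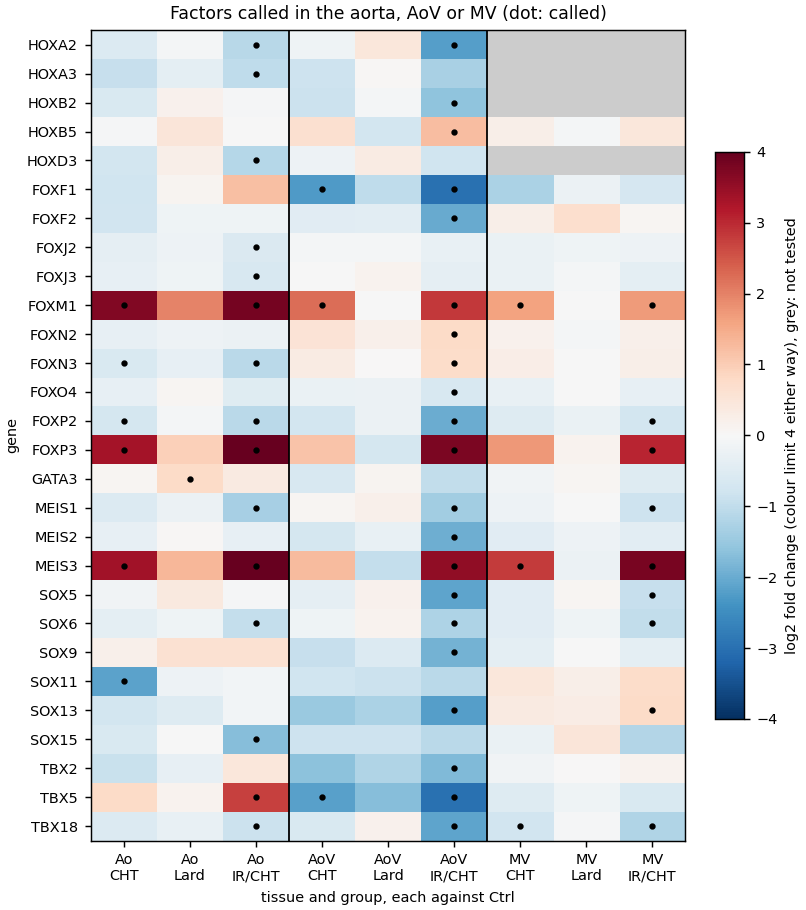
Log2 fold change against Ctrl (colour, limited to 4 either way) of genes called in the aorta, AoV or MV, with a dot where called and grey where not tested. MEIS3, FOXM1 and FOXP3 carry a dot for a rise in all 3 IR/CHT columns, whereas in the CHT columns FOXM1 carries one in all 3, MEIS3 in Ao and MV and FOXP3 in Ao alone. Most other dots are falls in the IR/CHT columns.

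MEIS3, FOXM1 and FOXP3 rose in the aorta, AoV and MV with IR/CHT. FOXM1 drives genes of mitosis. In the aorta it ran from 0 to 1.26 CPM (median 0.141) in Ctrl, 2.35 to 6.82 CPM (median 2.95) in CHT and 1.84 to 5.68 CPM (median 4.01) in IR/CHT, with no overlap between Ctrl and either group (log2 fold change 3.72 ± 0.67, adjusted p = 1.3e-04 and 3.82 ± 0.66, adjusted p = 3.4e-05). It rose in AoV too, from 0.0548 to 1.71 CPM (median 0.841) in Ctrl to 2.06 to 6.70 CPM (median 3.03) in CHT (2.22 ± 0.46, adjusted p = 0.0012) and 3.41 to 8.46 CPM (median 6.16) in IR/CHT (2.84 ± 0.46, adjusted p = 1.2e-05), and in MV with IR/CHT (1.69 ± 0.44, adjusted p = 0.0054), where the groups overlapped and the call was lost on either plate alone. Lard aortas held 0.124 to 2.98 CPM (median 1.19) and were not called. Dividing cell markers (6 of 8 found) moved alongside, from 5.40 to 20.2 CPM in Ctrl aorta to 37.7 to 104 CPM in CHT and 26.7 to 70.0 CPM in IR/CHT, and their part in the result was not tested.

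MEIS3, a HOX partner like MEIS1 and MEIS2, rose in the same 3 tissues. Aorta libraries ran from 0.321 to 1.97 CPM (median 0.953) in Ctrl to 3.79 to 21.6 CPM (median 9.96) in CHT and 6.73 to 69.0 CPM (median 16.2) in IR/CHT, without overlap with Ctrl (3.35 ± 0.69, adjusted p = 6.0e-04 and 4.66 ± 0.71, adjusted p = 7.0e-06). In AoV it went from 0.881 to 12.4 CPM (median 4.04) to 16.9 to 174.5 CPM (median 43.1) with IR/CHT, above every Ctrl library (3.55 ± 0.69, adjusted p = 1.3e-04), and in MV from 0.218 to 5.60 CPM (median 1.09) to 5.86 to 73.9 CPM (median 15.9) (3.80 ± 0.76, adjusted p = 4.9e-04). MEIS3 also belonged to the genes that rise with the axis between libraries. With the axis score as covariate the log2 fold changes of IR/CHT against Ctrl were 2.65, adjusted p = 2.1e-04 in the aorta, 4.12, adjusted p = 6.2e-10 in AoV and 2.95, adjusted p = 7.1e-07 in MV.

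FOXP3, the factor of regulatory T cells, was under the detection limit in all 5 Ctrl tissues. Like FOXM1 in the aorta, it passed the filter on low counts mainly through treated libraries. A fall from Ctrl could hardly have been called for it. In the aorta it reached 0.294 to 1.16 CPM (median 0.561) in CHT and 0.429 to 3.53 CPM (median 2.05) in IR/CHT, where Ctrl libraries held 0 to 0.254 CPM (3.32 ± 0.84, adjusted p = 0.0041 and 5.02 ± 0.82, adjusted p = 1.8e-05). In IR/CHT AoV it ran from 0.733 to 8.72 CPM (median 3.24) against 0 to 0.623 CPM in Ctrl (3.78 ± 0.81, adjusted p = 3.7e-04), and in MV the difference was 3.04 ± 0.79, adjusted p = 0.0055. All 10 macrophage markers were found, and their sum moved from 199.8 to 624 CPM in Ctrl AoV to 1810.0 to 2321 CPM in IR/CHT and from 68.7 to 301 CPM in Ctrl aorta to 609.9 to 2128 CPM in IR/CHT. Of the lymphocyte list 5 of 10 genes were found, none of them a CD3 chain, and the sum moved from 0.147 to 2.18 CPM in Ctrl AoV to 4.38 to 22.1 CPM in IR/CHT and from 0.318 to 3.82 CPM to 2.70 to 10.5 CPM in the aorta. Among them CD5 had a median of 0.165 CPM in Ctrl and 13.6 CPM in IR/CHT AoV, while MS4A1, a B cell marker, had a median of 0 in both groups. The part of these cells in the MEIS3 and FOXP3 values was not tested, and in bulk tissue more or fewer cells of a type and more or less RNA per cell cannot be told apart.

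**Figure D5:**
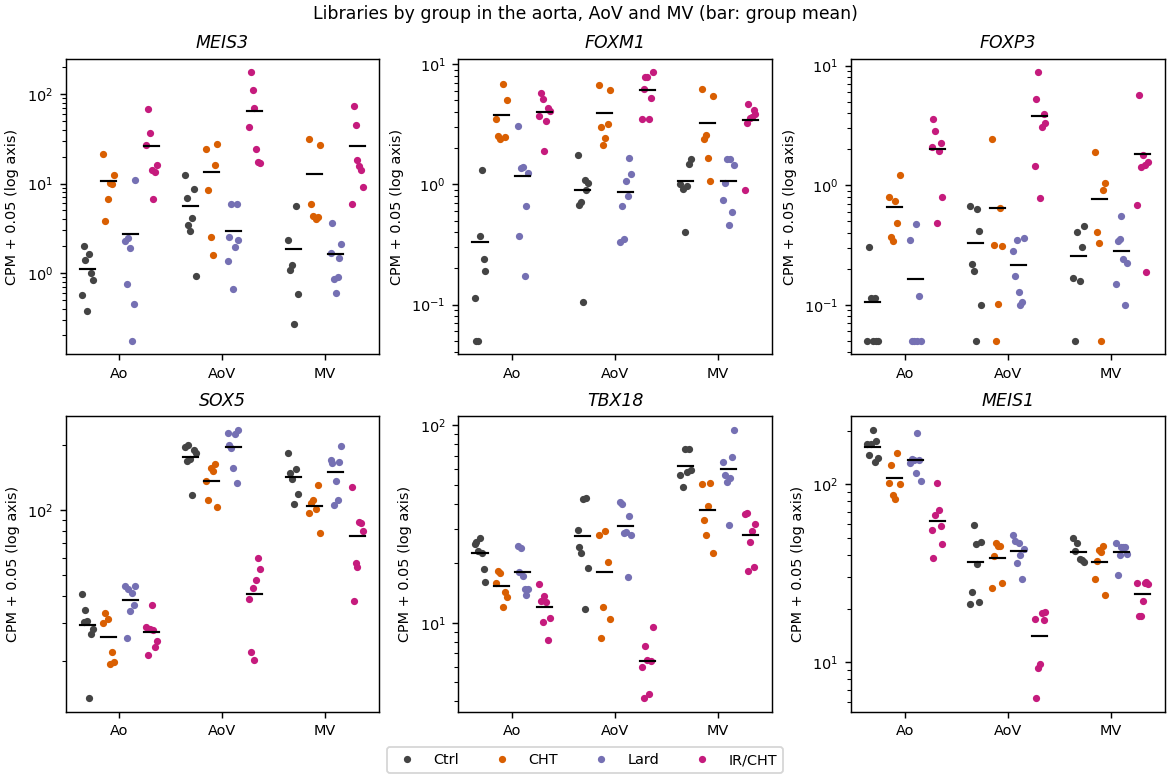
Each library of the aorta, AoV and MV by group for 6 genes, as CPM + 0.05 on log axes, with the group mean as a bar. MEIS3, FOXM1 and FOXP3 in CHT and IR/CHT aortas lie above every Ctrl aorta, and SOX5 in IR/CHT aortic valves, at 59.7 CPM or less, lies under every other aortic valve library.

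In the aorta IR/CHT lowered 12 genes and raised 4, where of all genes 22.2% higher and 12.2% lower were called. CHT lowered 4 and raised 3 (14.2% higher and 5.18% lower over all genes). MEIS1 went from 133.9 to 202 CPM (median 166.9) in Ctrl to 38.3 to 101 CPM (median 57.8) in IR/CHT, with no overlap (-1.33 ± 0.17, adjusted p = 4.1e-07), and it was the only gene called between IR/CHT and CHT (-0.77 ± 0.17, adjusted p = 0.033), a call lost in 7 of 13 fits that left out 1 library and with the axis as covariate. FOXN3 fell from 236.4 to 364 CPM (median 274.8) to 97.3 to 185.4 CPM (median 131) (-1.09 ± 0.15, adjusted p = 1.7e-06) and with CHT by 0.62 on the log2 scale, a call lost in 4 of 13 fits that left out 1 library. TBX18 fell from 16.1 to 26.7 CPM (median 23.1) to 8.09 to 15.7 CPM (median 12.7) (-0.87 ± 0.16, adjusted p = 6.0e-05). FOXP2, FOXJ2, FOXJ3, SOX6 and SOX15 were also lower, by log2 fold changes from -1.70 to -0.59. The FOXJ2 call was lost in 8 of 14 fits that left out 1 library and in 4 of 6 other settings (DESeq2, its size factors, the axis as covariate and only the groups compared). The FOXJ3 call was lost in 1 of 14 such fits and with the axis as covariate.

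Of 13 HOX genes tested, 4 were called in the IR/CHT aorta, all lower, where 34.3% of all genes were called and 12.2% were lower. HOXA2 went from 10.02 to 24.3 CPM (median 14.6) in Ctrl to 4.63 to 9.93 CPM (median 6.40) in IR/CHT, every IR/CHT library lying under every Ctrl library (-1.10 ± 0.23, adjusted p = 3.2e-04). HOXA3 (-1.01 ± 0.35, adjusted p = 0.018) and HOXD3 (-1.15 ± 0.41, adjusted p = 0.023) were lower with IR/CHT as well, each losing its call in 2 or 3 of 14 fits without 1 library. With all libraries in 1 fit HOXA2, HOXA3 and HOXD3 lost the call with IR/CHT, HOXA2 and HOXD3 lost it with the axis as covariate, and HOXA3 in a fit of these groups alone. Over the same groups smooth muscle markers summed to 81778 to 115683 CPM in Ctrl, 31638 to 81431 CPM in CHT and 11594 to 61000.4 CPM in IR/CHT, and their part in the falls of HOXA2, MEIS1 and FOXN3 was not tested. None of the 6 smooth muscle markers found was at 0.

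TBX5 rose in the irradiated aorta (2.74 ± 0.73, adjusted p = 0.0027), from 0 to 1.14 CPM (median 0.193) in Ctrl to 0.268 to 6.16 CPM (median 1.84), with groups that overlapped. The heart muscle sum had a median of 691 CPM in Ctrl and 334 CPM in IR/CHT aorta, where library L566 held 3321 CPM and the others at most 755 CPM, and its part in the TBX5 rise was not tested. The TBX5 call was lost with the axis as covariate. SOX11 fell with CHT (-2.15 ± 0.70, adjusted p = 0.022), a call lost without CHT library L574. GATA3 was the only call for Lard, from 2.12 to 3.11 CPM (median 2.81) in Ctrl to 3.45 to 6.22 CPM (median 4.50) in Lard, without overlap (0.76 ± 0.19, adjusted p = 0.025), and it was lost in 4 of 14 fits that left out 1 library, without the filter on low counts, in 1 fit of all libraries and in a fit of these groups alone.

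IR/CHT lowered 15 genes and raised 6 in the aortic valve, where of all genes 21.1% higher and 21.7% lower were called. SOX5 fell from 117 to 199.8 CPM (median 183.9) in Ctrl to 20.2 to 59.7 CPM (median 43.4) in IR/CHT (-2.12 ± 0.21, adjusted p = 4.8e-09), while CHT at 103 to 163 CPM and Lard at 134.1 to 235.5 CPM were not called. MEIS2 fell from 63.1 to 123 CPM (median 83.8) to 7.50 to 33.6 CPM (median 26.7) (-1.96 ± 0.26, adjusted p = 8.2e-07), and SOX9 from 110.1 to 373 CPM (median 165) to 26.8 to 101 CPM (median 52.3) (-1.89 ± 0.33, adjusted p = 3.0e-05). Neither SOX5, MEIS2 nor SOX9 overlapped between these groups. TBX18 fell from 11.7 to 42.5 CPM (median 24.2) to 4.11 to 9.51 CPM (median 6.37) (-2.12 ± 0.30, adjusted p = 2.3e-06) and HOXA2 from 1.69 to 4.55 CPM (median 2.91) to 0.373 to 0.810 CPM (median 0.697) (-2.20 ± 0.32, adjusted p = 2.8e-06), both without overlap.

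SOX6, MEIS1 and FOXP2 were lower too, with log2 fold changes of -1.23, -1.40 and -1.996, so that MEIS1 and MEIS2 both fell while MEIS3 rose. TBX5 fell from its low Ctrl level of 0.0779 to 3.47 CPM (median 2.25) with CHT (-2.16 ± 0.63, adjusted p = 0.022) and IR/CHT (-2.98 ± 0.63, adjusted p = 3.3e-04), where the heart muscle sum moved from 193.6 to 13119 CPM in Ctrl to 15.8 to 369.7 CPM in CHT and 29.8 to 289 CPM in IR/CHT, and the part of that muscle was not tested. FOXF1, a mesenchymal forkhead gene, fell with CHT (-2.26 ± 0.66, adjusted p = 0.022) and IR/CHT (-2.98 ± 0.65, adjusted p = 4.7e-04). TBX2, SOX13 and FOXF2 fell with IR/CHT by log2 fold changes of -1.76, -2.19 and -2.01. FOXN3 rose here, from 44.7 to 59.7 CPM (median 51.7) to 75.8 to 104 CPM (median 83.6) (0.72 ± 0.11, adjusted p = 3.4e-06), and FOXN2 and HOXB5 rose by 0.76 and 1.23. The HOXB5 call was lost in 8 of 14 fits that left out 1 library, without the filter on low counts and on either plate alone. FOXF2 and FOXN2 also lost theirs on either plate alone, FOXF1, SOX13 and TBX2 on plate 2 alone, and TBX5 and FOXP3 on plate 1 alone. The TBX2 call was lost without Ctrl library L150, and with CHT the call of FOXF1 was lost in 5 of 13 such fits and that of TBX5 in 2 of 13. With the axis as covariate 21 genes were called, 6 higher and 15 lower, while FOXO4 and HOXB2 lost their calls. On plate 1 alone CHT against Ctrl, with 6 CHT and 3 Ctrl libraries, called 0 genes, so the 3 CHT calls in AoV were not seen within that plate. Valve interstitial markers (6 of 7 found) summed to 18869 to 25224 CPM in Ctrl AoV and 18958 to 28497 CPM in IR/CHT. Schwann cell and nerve markers (6 of 6 found) went from 166.7 to 401 CPM in Ctrl to 10.4 to 102 CPM in IR/CHT, without overlap, and cartilage markers (9 of 9 found) from 584 to 935 CPM to 325 to 623 CPM, with overlap. Adipocyte markers went from 16.5 to 114 CPM in Ctrl to 122 to 1095 CPM in IR/CHT, without overlap. Dividing cell markers went from 11.0 to 20.3 CPM to 54.0 to 97.9 CPM, also without overlap. The part of the cells that carry these markers in the changes of SOX5, SOX9, MEIS2 and the other factors was not tested.

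The step from CHT to IR/CHT was itself called in AoV for 10 of 37 genes, 2 higher and 8 lower, against 9.9% higher and 9.85% lower over all genes. SOX5 (-1.77 ± 0.21, adjusted p = 4.2e-06), HOXA2 (-2.03 ± 0.33, adjusted p = 7.9e-05) and MEIS1 (-1.47 ± 0.27, adjusted p = 2.6e-04) led the falls, followed by TBX18, MEIS2, SOX6, FOXP2 and SOX9, and MEIS3 and FOXP3 rose by 2.27 and 2.65. The SOX9 call was lost in 6 of 13 fits that left out 1 library, and the MEIS3 call without IR/CHT library L178. The FOXP2 and FOXP3 calls were lost on plate 1 alone, which holds all CHT libraries of AoV. In plain levels, SOX5 ran from 103 to 163 CPM (median 143) in CHT and lay above every IR/CHT library. The same step called 1 of 44 genes in the aorta and 0 of 34 in MV (3 at an unadjusted p under 0.05, 1 in DESeq2).

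In the mitral valve IR/CHT lowered 5 genes and raised 4, against 11.1% higher and 6.65% lower over all genes. TBX18, highest there in Ctrl rabbits, fell from 48.9 to 76.1 CPM (median 58.7) to 18.2 to 35.7 CPM (median 29.3) with no overlap (-1.19 ± 0.22, adjusted p = 2.3e-04). MEIS1 (-0.82 ± 0.14, adjusted p = 1.1e-04), SOX6 (-0.98 ± 0.18, adjusted p = 2.9e-04), SOX5 (-0.93 ± 0.20, adjusted p = 0.0013) and FOXP2 (-0.72 ± 0.25, adjusted p = 0.036) were lower, and SOX13 was higher (0.75 ± 0.26, adjusted p = 0.033) with MEIS3, FOXM1 and FOXP3. The FOXP2 and SOX13 calls were each lost in 7 of 13 fits that left out 1 library, and in 6 and 4 of 9 other settings, the axis as covariate among them, and those of MEIS1, SOX5 and FOXP3 on plate 2 alone. Markers of other cells moved in MV as well: the macrophage sum went from 223 to 668 CPM in Ctrl to 807 to 1393 CPM in IR/CHT and the lymphocyte sum from 0.381 to 0.758 CPM to 1.77 to 15.5 CPM, both without overlap. Dividing cell markers went from 11.5 to 30.8 CPM to 33.2 to 75.2 CPM without overlap, and Schwann cell and nerve markers from 161.2 to 373 CPM to 49.9 to 206 CPM with overlap. Their part in the MV values was not tested. Of the 5 genes higher in the atrioventricular valves of Ctrl rabbits, TBX18 fell, and the other 4 did not pass: TBX5 differed by -0.60 ± 0.23, adjusted p = 0.054, GATA3 by -0.53 ± 0.36, adjusted p = 0.302, HOXA7 by -0.79 and HOXC4 by 0.16. CHT called MEIS3 (2.79 ± 0.74, adjusted p = 0.018), FOXM1 (1.61 ± 0.45, adjusted p = 0.026) and TBX18 (-0.75 ± 0.23, adjusted p = 0.045), and 0 genes were called without Ctrl library L199, without CHT library L266 or on plate 1 alone. In the 12 fits that left out 1 library TBX18 lost this call in 9, FOXM1 in 6 and MEIS3 in 3.

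Whether a response differed between tissues was tested as an interaction, at an adjusted p under 0.05. Aortic valve against aorta gave 2 of 44 genes for CHT (5.3% of all genes) and 15 for IR/CHT (32.8%), 2 higher and 13 lower in AoV, against 11.1% higher and 21.7% lower over all genes. FOXN3 fell in the irradiated aorta and rose in the irradiated AoV (difference of log2 fold changes 1.68 ± 0.18, adjusted p = 1.8e-09), and the CHT responses differed likewise (0.87 ± 0.19, adjusted p = 0.0039). SOX5 (-2.20 ± 0.28, adjusted p = 4.1e-08), TBX5 (-5.84 ± 0.99, adjusted p = 1.3e-05), SOX9 (-2.67 ± 0.48, adjusted p = 3.5e-05) and MEIS2 (-1.78 ± 0.32, adjusted p = 3.7e-05) responded more negatively in AoV, as did FOXF1 (-4.33) and SOX10 (-4.70), and SOX5, SOX9 and MEIS2 had not passed in the aorta. SOX10 was not detected in Ctrl AoV, where it ran from 0 to 0.611 CPM, so its value lies near the floor. HOXB2 (-1.72) was also called but lost its call in 7 of 8 other settings, the rabbit as a block among them. With that block the count was 17.

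Mitral against aortic valve gave 0 of 40 genes for CHT (0% of all genes, 4 family genes at an unadjusted p under 0.05, 0 in DESeq2) and 8 for IR/CHT (15.7% of all genes), 7 of them higher in MV, against 8.41% higher and 7.26% lower over all genes. MEIS2 (1.58 ± 0.32, adjusted p = 7.5e-04), SOX13 (3.01 ± 0.62, adjusted p = 8.8e-04), SOX5 (1.24 ± 0.29, adjusted p = 0.0029), TBX5 (2.45 ± 0.59, adjusted p = 0.0035) and SOX9 (1.55 ± 0.39, adjusted p = 0.0051) had a less negative or a positive response in MV. Libraries of both valves come from the same rabbits, and with the rabbit as a block the count was 17.

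A fixed list of 45 partners and other developmental factors (PBX, PKNOX, ID, HAND, IRX, TLE and others) had 33 genes in the tables. Semilunar against atrioventricular valves called 9 of 29 tested, 5 higher and 4 lower, where 5.82% of all genes were called, those with the smallest p being ISL1, a factor of second heart field progenitors (8.09 ± 0.35, adjusted p = 2.4e-15), TCF21 of the epicardium (-2.71 ± 0.19, adjusted p = 3.6e-12) and MSX2 (-1.10 ± 0.14, adjusted p = 8.2e-07). The aorta against the valves called 19 of 29, 13 higher and 6 lower (34.1% of all genes). IR/CHT called 19 of 29 in AoV, 4 higher and 15 lower, where 42.8% of all genes were called, among them the MEIS relative PKNOX2 (-1.60 ± 0.15, adjusted p = 1.4e-09), ISL1 (-2.33 ± 0.25, adjusted p = 1.8e-08) and ZFPM2 (-1.49 ± 0.17, adjusted p = 6.8e-08). In the aorta IR/CHT called 10 of 29 (34.3% of all genes) and in MV 7 of 27 (17.7%), and PKNOX2 was lower in each (-1.02 and -0.77).

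The remaining 34 of the 79 genes were not detected in any Ctrl tissue, and 9 of them never exceeded 3 read pairs in a library of any group. GATA1 gave 65 read pairs over all libraries, PITX3 34 and FOXJ1 30, and TBX21, the T helper factor, had 0.0866 ± 0.0896 CPM in Ctrl MV.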

How the data were processed

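RNA was sequenced from the aorta and 4 valves of male New Zealand White rabbits (stranded SMARTer Pico libraries). The authors demultiplexed reads (bcl2fastq 2.20) and processed them with nf-core/rnaseq on OryCun2.0, and the values used are the raw counts of read pairs per gene that they deposited in a table for each of 2 plates. Counts were tested as deposited with edgeR 4.0.16 in R 4.3.3 (quasi-likelihood, robust, TMM, filterByExpr), over all genes, with Benjamini-Hochberg adjustment. A call needed an adjusted p under 0.05 and a fold over 1.5, or an adjusted p under 0.05 alone for interactions and the test of any tissue difference. Tissues were compared within a treatment, treatments within a tissue. Errors beside log2 fold changes are standard errors, and errors beside CPM are SD. Replicates within a group are separate rabbits. Tissue contrasts and interactions take several libraries of a rabbit, which the main tests treat as independent. The rabbit as a block was an alternative only. Libraries held 13564979 to 50577676 counts, and intervals of depth cover counting error only.

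Named were up to 8 called genes per direction and contrast with the smallest p, up to 5 per interaction, 48 listed genes whatever their result and up to 3 partners per contrast. Some genes that this rule named are not reported here. The members and lists were chosen with earlier results of these data known. Alternatives were DESeq2 1.42.0, its size factors, no filter on low counts, plate as covariate or each plate alone, all libraries in 1 fit, only the groups compared, each library left out and the rabbit as a block. The rabbit, named in the column headers, pairs tissues: the median correlation of deviations was 0.206 to 0.569 within a rabbit and -0.0976 to -0.0282 between rabbits. Leaving out L271 and L272 and the axis covariate were chosen after seeing the data.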

Additional observations from a re-analysis of the deposited data

Results flagged for a closer look

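Of 87 groups whose values are given, 11 held 1 library apart from the rest by Dixon's criterion, where chance gives about 1 in 20. The highest library stood apart for FOXM1 in Ctrl aorta (1.26 CPM) and Lard aorta (2.98 CPM), FOXP3 in Ctrl aorta (0.254 CPM), HOXA7 in Ctrl TV (0.972 CPM), HOXC4 in Ctrl MV (1.94 CPM) and Ctrl PV (0.350 CPM), and TBX5 in Ctrl aorta (1.14 CPM) and IR/CHT aorta (6.16 CPM). The lowest library stood apart for MEIS2 in Ctrl aorta (17.1 CPM) and for SOX5 in Ctrl AoV (117 CPM) and Ctrl TV (84.9 CPM).

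The response to a treatment differed between tissues, by the interaction test, for 25 pairs of gene and contrast. For CHT in AoV against aorta the differences of log2 fold changes were 0.87 for FOXN3 and 0.82 for FOXN2. For IR/CHT in AoV against aorta they were 1.68 for FOXN3 and 0.85 for FOXN2, and -5.84 for TBX5, -4.70 for SOX10, -4.33 for FOXF1, -2.67 for SOX9, -2.38 for TBX2, -2.26 for SOX13, -2.20 for SOX5, -1.78 for MEIS2, -1.72 for HOXB2, -1.49 for GATA3, -1.39 for TBX18, -1.24 for HOXA2 and -1.06 for FOXP2. For IR/CHT in mitral against aortic valve they were 3.01 for SOX13, 2.45 for TBX5, 2.37 for FOXF1, 1.58 for MEIS2, 1.55 for SOX9, 1.31 for FOXP2, 1.24 for SOX5 and -0.44 for FOXN3. Under the other settings the interaction call was lost in 7 of 8 for HOXB2 and 3 of 8 for FOXP2 (IR/CHT, AoV against aorta), in 3 of 7 for FOXN2 (CHT, AoV against aorta), and in 5 of 9 for FOXF1 and 3 of 9 each for TBX5 and FOXN3 (IR/CHT, mitral against aortic valve). Each other pair lost it in at most 2 settings. SOX10 was not detected in Ctrl AoV, so its difference rests on levels near the floor.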

How the results depend on the processing

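Of 290 counts of calls under alternatives, 250 stayed within 1.5 times of the reported count. Of 1577 values of single genes, 1351 kept their call, 215 lost it and 11 changed sign, and of 4277 values with 1 library left out 4081 kept their call, the rest lost it and 0 changed sign. On plate 2 alone the counts were 24 for any tissue difference, 3 for semilunar against atrioventricular valves, 0 for mitral against tricuspid, left against right and aortic against pulmonary valves, 13 for IR/CHT in AoV, 4 for IR/CHT in MV and 0 for the mitral against aortic valve response to IR/CHT. On plate 1 alone they were 10 for mitral against tricuspid valve, 4 for that response, 0 for CHT in AoV and in MV, and 5 for semilunar against atrioventricular valves in all 4 treatments. A plate alone holds fewer libraries. With plate as covariate CHT in AoV and the AoV against aorta response to CHT each gave 1, as did the latter with no filter on low counts, where Lard in the aorta gave 0. DESeq2 gave 13 for the mitral against aortic valve response to IR/CHT, 3 for IR/CHT against CHT and 2 for Lard in the aorta, 8 for CHT in AoV, 1 for IR/CHT against CHT in MV, and 3 and 2 for IR/CHT against Ctrl and CHT in PV. All libraries in 1 fit gave 9 for CHT in AoV, and 1 each for CHT in MV, IR/CHT against CHT in PV and Lard in TV. Only the groups compared gave 0 for IR/CHT against CHT and for Lard in the aorta and 1 for CHT in MV.

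With the axis as covariate the counts were 0 for aortic against pulmonary valve, for left against right valves in Ctrl and in all 4 treatments and for IR/CHT against CHT in the aorta, 11 for CHT and 3 for Lard in the aorta, and 5 for CHT in AoV. The sign turned with it for aortic against pulmonary valve in FOXF1 (-0.50), FOXN2 (0.34), SOX13 (-0.50) and TWIST2 (-0.085), for AoV against aorta in FOXF1 (-0.12), FOXK1 (-0.62), SOX13 (-0.65) and TBX6 (-0.038), and for left against right in SOX13 (-0.66). On plate 2 alone SOX10 (-0.17, aortic against pulmonary valve) and MEIS3 (-0.026, left against right) turned. The cause was not tested.

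With the rabbit as a replicate block the response to IR/CHT in mitral against aortic valve gave 17 calls and that to CHT 1, and of 123 values 3 lost their call: SOX10 and TWIST2 (aortic against pulmonary valve) and HOXB2 (AoV against aorta response to IR/CHT). No other of these 123 values lost its call. With 1 library left out the counts ran from 0 to 2 for Lard and for IR/CHT against CHT in the aorta, 1 to 7 for CHT in AoV, 1 to 8 for mitral against tricuspid valve, 0 to 3 for CHT and 0 to 1 for IR/CHT against CHT in MV, 0 to 1 for IR/CHT in PV and 0 to 2 for IR/CHT in TV. Genes near 1 CPM, most HOX genes of the valves among them, are limited by depth.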
